A study of Mus musculus with 3 samples.

Results

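The 39 Hox genes of the mouse were followed by axial position in cells of the early mesoderm lineage. The members are every row of the deposited matrix whose symbol is Hoxa, Hoxb, Hoxc or Hoxd with a number, 39 of 51923 genes, and no measured value was used to choose them. The study profiled single cells of C57BL/6 embryos that carried Mesp1-Cre, which acts in nascent mesoderm, the Ai9 reporter, which turns red after recombination, and a floxed Wls gene, which encodes a protein that Wnt ligands need for secretion. Controls were Mesp1-Cre; Ai9; Wls fl/+ and mutants Mesp1-Cre; Ai9; Wls fl/fl, so both carried the Cre, the reporter and at least 1 floxed allele, and Wls could be lost only in cells with a history of Cre. Cells were tagged with MULTI-seq lipid barcodes, sorted for the reporter and captured with 10x Chromium v3. Comparisons were made over barcode samples, each the summed UMIs of all cells with 1 barcode in 1 run, at 1 stage and in 1 condition. At E8.0 there were 3 control samples (1549 cells) and 3 mutant samples (1653 cells), at E8.5 2 controls (2542 cells) and 1 mutant (487 cells), and at E9.5 6 controls (5733 cells) and 6 mutants (2785 cells). The deposited cell table calls these conditions wildtype and knockout, which were read as fl/+ and fl/fl. Nothing in the labels says that a barcode held 1 embryo, so the p-values measure only the spread between these samples.

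Hox genes encode homeodomain transcription factors that give cells their position along the head-to-tail axis. They lie in 4 clusters, and genes at the same place in different clusters form a paralog group. Low-numbered groups are switched on earlier and reach farther forward than high-numbered groups, and retinoic acid, Wnt, Fgf and Cdx factors act on their onset. In the heart region Hoxb1 and Hoxa3 mark the posterior part of the second heart field, the progenitors that add cells to the poles of the heart tube. Here groups 1 to 3 are called anterior (8 members), 4 to 8 middle (15 members) and 9 to 13 posterior (16 members). In the GENCODE M21 annotation of GRCm38 the clusters were Hoxa (chr6:52155590-52260880, 11 members), Hoxb (chr11:96194316-96368256, 10 members), Hoxc (chr15:102921103-103036852, 9 members) and Hoxd (chr2:74668310-74765142, 9 members).

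The 250 bases before the RefSeq start of a gene are shown for 5 members, because 3 of them rose between E8.0 and E9.5 (Hoxa2, Hoxa5, Hoxb4), 1 narrowly missed the threshold (Hoxd4) and 1 fell (Hoxd1). The RefSeq table (GRCm38.p6) held 24 such windows for 22 of the 39 members. Capitals mark any match, on either strand, to 3 motifs: TTTATNG, the kind of site Cdx factors bind, TGATNNAT, a Hox-Pbx site, and AGGTCA, the core element of retinoic acid receptor sites. The windows lie at chr6:52164832-52165081 (Hoxa2, minus strand), chr6:52204588-52204837 (Hoxa5, minus strand), chr11:96318017-96318266 (Hoxb4, plus strand), chr2:74721728-74721977 (Hoxd4, plus strand) and chr2:74762730-74762979 (Hoxd1, plus strand), where the last one also holds an exon of Haglr, an RNA of the Hoxd cluster. In the GENCODE annotation Hoxd4 starts farther upstream (chr2:74711929-74729160), so the Hoxd4 window, placed before the RefSeq start, lies inside Hoxd4 and Hoxd3 there.
Hoxa2: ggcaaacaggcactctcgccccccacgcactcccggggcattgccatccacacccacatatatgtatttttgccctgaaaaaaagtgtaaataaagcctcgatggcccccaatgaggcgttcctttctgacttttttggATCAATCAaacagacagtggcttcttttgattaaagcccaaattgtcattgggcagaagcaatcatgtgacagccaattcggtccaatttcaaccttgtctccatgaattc
Hoxa5: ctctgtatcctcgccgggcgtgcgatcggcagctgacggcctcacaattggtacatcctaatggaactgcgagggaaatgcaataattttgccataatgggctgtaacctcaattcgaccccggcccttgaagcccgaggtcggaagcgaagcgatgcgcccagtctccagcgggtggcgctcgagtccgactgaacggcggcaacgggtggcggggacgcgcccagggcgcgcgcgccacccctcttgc
Hoxb4: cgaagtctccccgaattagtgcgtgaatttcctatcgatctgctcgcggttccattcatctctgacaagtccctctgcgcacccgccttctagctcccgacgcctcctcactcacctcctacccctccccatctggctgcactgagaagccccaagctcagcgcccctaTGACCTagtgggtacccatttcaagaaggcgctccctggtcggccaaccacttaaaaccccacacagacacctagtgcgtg
Hoxd4: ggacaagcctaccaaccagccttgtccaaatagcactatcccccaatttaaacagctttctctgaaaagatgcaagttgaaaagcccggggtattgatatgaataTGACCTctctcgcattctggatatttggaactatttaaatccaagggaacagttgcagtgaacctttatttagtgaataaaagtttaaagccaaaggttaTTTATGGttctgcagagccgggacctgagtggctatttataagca
Hoxd1: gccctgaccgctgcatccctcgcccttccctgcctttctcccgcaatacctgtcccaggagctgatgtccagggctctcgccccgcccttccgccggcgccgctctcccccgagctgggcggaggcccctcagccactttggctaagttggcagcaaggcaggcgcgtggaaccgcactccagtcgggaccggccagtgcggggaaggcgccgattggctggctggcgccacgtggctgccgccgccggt
The Hoxa2 window held the Hox-Pbx letters on the opposite strand, the Hoxb4 and Hoxd4 windows held the retinoic acid receptor letters on the opposite strand, and the Hoxd4 window also held the Cdx-type letters. The windows of Hoxa5 and Hoxd1 held none of the 3. The Cdx-type letters were in 2 of the 24 Hox windows (9.81% of 32851 promoters of this length), the Hox-Pbx letters in 4 (7.68% of promoters) and the receptor letters in 6 (14.0% of promoters). Hox windows had a median of 12.5 CpG dinucleotides and 58.6% G and C, against 6.00 and 52.4% over all promoters. A match is a description of letters and not a binding site.

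The files held 331587989 UMIs (molecules counted once each) in 14777 cells, with a median of 21739 UMIs per cell. Run 3 was the shallowest, with a median of 11866 against 23112 (run 1) and 23555 (run 2). Stage and run were tied: run 1 held every E8.0 sample, run 2 every E8.5 sample, and only E9.5 was in each of the 3 runs. In addition, 23 cell barcodes occurred in 2 runs. Wls was 35.9 to 65.4 CPM (UMIs scaled to a common sample total) in the controls of E8.0 to E9.5 and 3.72 to 14.2 CPM in the mutants, with no overlap. In edgeR's quasi-likelihood test with Benjamini-Hochberg adjustment the log2 fold change of Wls was −2.38 at E8.0 (SE 0.24, adjusted p = 0.0469) and −2.06 at E9.5 (SE 0.12, adjusted p = 1.63e-07). Some samples stood apart in their Hox levels and are named here before the results. The E9.5 control Bar7 (164 cells) was the lowest, or tied at 0 for the lowest, of 11 E9.5 samples for all 35 members with at least 100 UMIs in the series. Its cells were 40.2% blood-like and 2.44% in the 7 cell clusters richest in Hox RNA. The E8.0 control Bar26 was the lowest of 6 E8.0 samples for 12 of 12 posterior members with 100 UMIs, 12 of 15 middle members and 3 of 8 anterior members. The E8.5 mutant Bar1, the only mutant of its stage, had 4.58 CPM of posterior Hox RNA, and the E9.5 control Bar6 held 6 cells, so that 1 UMI there is 7.44 CPM. Levels below are given over samples of at least 20 cells, which leaves out Bar6 (it is kept in the tests), and the number of cells of a type and the RNA per cell cannot be told apart in such sums.

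The members together had 124611 UMIs. Hoxb4, of the fourth group, had the most (13877 UMIs, found in 37.4% of cells), followed by the first-group gene Hoxb1 (9081 UMIs) and by Hoxa5 (8338 UMIs), a gene known for its role in the lung and neck region. The members with the fewest UMIs were of groups 12 and 13: Hoxd12 (1 UMI), Hoxc12 (2 UMIs), Hoxb13 (6 UMIs) and Hoxc13 (9 UMIs). UMIs tag the end of a transcript, so they were not scaled by gene length. In the annotation 23 of the 39 members overlap another gene, 15 on the same strand and 14 on the other. Among these, Hoxa3 spans Hoxa4, Hoxa5 and Hoxa6, Hoxd3 overlaps Hoxd4, Hoxc5 spans Hoxc6, Hoxc8 and Hoxc9 and overlaps Hoxc10, and Hoxa11 lies against Hoxa11os. The sources used here do not say how reads in such stretches or on each strand were assigned, so the counts of these members are uncertain where genes overlap.

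The Hox code differed widely between kinds of cells. Cells were clustered without any gene of the Hox clusters, giving 35 clusters, 26 of which took a name from marker genes of a cell type. Since these are descriptions of clusters, no test is attached to them. The summed Hox level had a median of 251 CPM over clusters and ran from 3.36 CPM in the blood-like cluster 10 to 1211 CPM in the allantois-like cluster 15. At a clustering resolution of 2 the highest cluster had 2436 CPM. The allantois is the mesoderm that joins the embryo to the placenta. The 7 clusters with the highest level held 25.1% of cells and 64.3% of Hox UMIs. They held 50% of anterior, 65.2% of middle and 82.6% of posterior UMIs.

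Cluster 15 had 516 CPM of posterior RNA, and its leading members were Hoxc8 (133 CPM), Hoxc9 (110 CPM), Hoxb9 (100 CPM) and Hoxc10 (71.6 CPM). Allantois-like cluster 26, with 99.4% of its cells from E8.0, had 548 CPM of posterior RNA, led by Hoxc8 (122 CPM), Hoxa9 (117 CPM) and Hoxa10 (112 CPM). It also held Hoxa13 (25.5 CPM) and Hoxa11 (24.1 CPM), which act at the tail end of the trunk and in limbs. These clusters were the only ones of at least 100 cells with a member of group 13 at 5 CPM or more. Trunk lateral plate-like cells, the sheet that lines the body wall and forms limb buds, were led by middle members. In cluster 1 these were Hoxb4 (111 CPM) and Hoxa5 (109 CPM), and in cluster 8 Hoxa5 (113 CPM), Hoxb4 (77.9 CPM) and Hoxb6 (68.8 CPM). Their posterior sums were 90.6 and 117 CPM. These 2 clusters divided in part by run. At E9.5 the run 1 samples had 13.9 to 19.7% of cells in cluster 1 and at most 0.292% in cluster 8. The controls Bar4 (run 2) and Bar9 (run 3) had 0.164 and 1.38% in cluster 1 and 10.7 and 12.2% in cluster 8. Mutants of runs 2 and 3 had 6.43 to 8.77% and 2.38 to 6.07%. Kinds of cells and runs cannot be told apart in the differences between clusters 1 and 8.

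Several clusters of the heart region had little posterior RNA. This was not particular to them, since paraxial mesoderm-like cluster 2 had 9.10 CPM of 251 CPM and the unnamed cluster 3 had 4.38 CPM of 62.7 CPM. The unnamed cluster 4 had 130 CPM of posterior RNA. Its leading genes begin with Lhx1, Cdx4, Ifitm1 and Cdx2 and include Osr1 and Foxf1. It raised 3 of 6 markers of posterior second heart field or splanchnic mesoderm and 2 of 5 of intermediate mesoderm, so its place in the heart region is uncertain. The unnamed cluster 5, whose leading genes include Foxf1, Osr1 and Wnt4, genes of splanchnic mesoderm, had Hoxb4 (118 CPM), Hoxa5 (82.7 CPM) and Hoxb1 (79.6 CPM) but 8.98 CPM of posterior RNA. Proepicardium-like cluster 14, the source of the outer layer of the heart, had Hoxb4 at 124 CPM, Hoxb1 at 61.1 CPM and 6.14 CPM of posterior RNA. The other proepicardium-like cluster, 28, summed to 111 CPM, with Hoxb4 at 44.2 CPM and Hoxb1 at 6.59 CPM. The anterior second heart field-like cluster 19 had 258 CPM of anterior RNA out of 360 CPM, including Hoxb1 (76.6 CPM) and Hoxa2 (33.6 CPM). It raised 5 of 6 markers of its class. Its Hoxb1 level was near that of cluster 5, and Hoxb1 marks the posterior part of the field, so the place of cluster 19 within it is uncertain. Halr1, an RNA gene outside the Hoxa cluster (chr6:52102949-52113684), is among the leading genes of this cluster and was used in the clustering. Anterior second heart field-like cluster 6 had Hoxb1 at 36.6 CPM. The strongest member of cluster 25 was Hoxa2 (5.76 CPM). That cluster took the same name but raised 5 of 6 markers both of this class and of cranial mesoderm, so its name is uncertain. Hoxa2, the gene that sets the identity of the second pharyngeal arch, also led cranial mesoderm-like cluster 13 (24.6 CPM of 53.8 CPM in all). Cardiomyocyte-like cluster 16 held Hoxb4 (29.8 CPM) and Hoxb1 (24.9 CPM), while cardiomyocyte-like cluster 21 summed to 29.7 CPM.

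**Figure D1:**
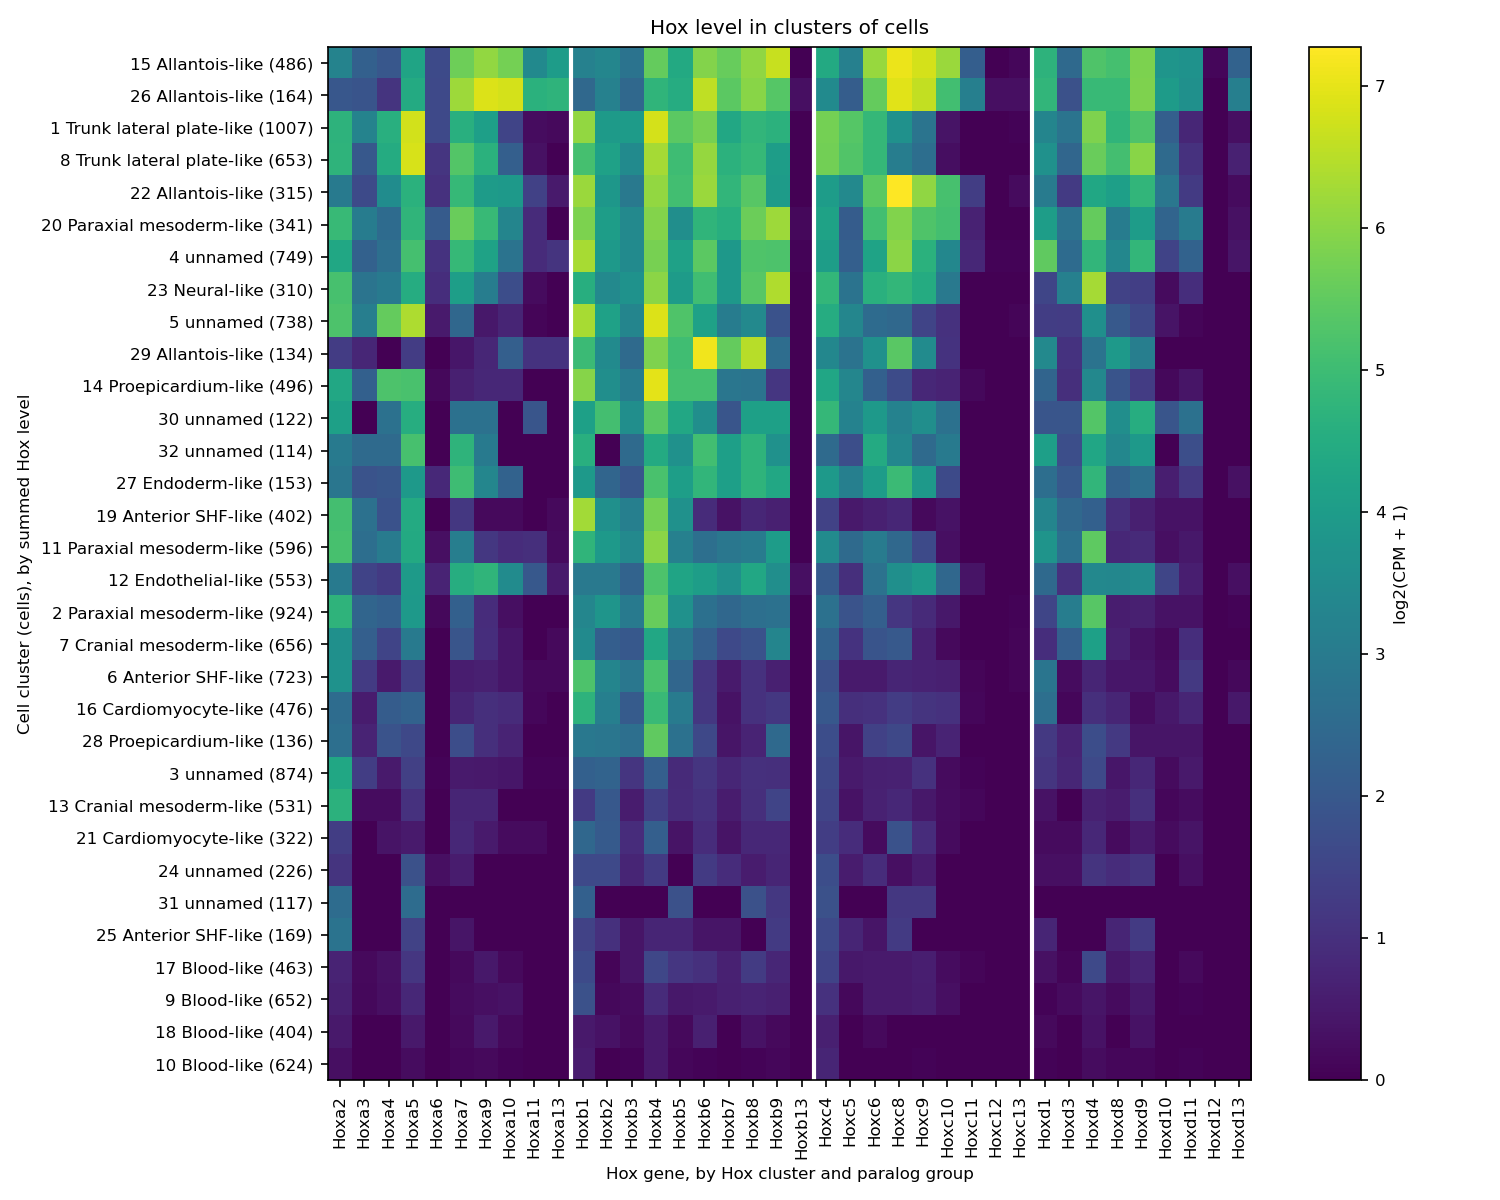
Level of Hox members (columns, by paralog group) in clusters of at least 100 cells (rows, with their class), as log2(CPM + 1). Allantois-like clusters 15 and 26 extend into the posterior groups, while clusters 5, 14 and 19 stop before them.

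The share of cells with at least 1 Hox UMI was compared after each cell was thinned to 5000 UMIs, which left out 447 shallower cells. It was 52.8% of cells (70.7% before thinning). Posterior members were found in 64.6% of thinned allantois-like cells (95% exact binomial interval 61.7 to 67.5%, 79.1% unthinned). They were found in 22.6% of trunk lateral plate-like cells (20.6 to 24.7%), 21.6% of neural-like cells (17.1 to 26.7%) and 17.3% of endothelial-like cells (14.2 to 20.8%). Paraxial mesoderm-like cluster 20 gave 26.8% and the unnamed cluster 4 gave 20.4%. The allantois-like clusters differed: 93.9% in cluster 26, 82.7% in cluster 15, 44.5% in cluster 22 and 10.4% in cluster 29. Blood-like cells, which should hold little Hox RNA, gave 1.18% (0.775 to 1.73%) at a median depth of 28661 UMIs, against 21374 UMIs in allantois-like cells. That share was 0.252 to 1.73% in blood-like clusters 9, 10, 17 and 18 and 13.1% in the 61 thinned cells of cluster 33. Cardiomyocyte-like cells (1.67%, interval 0.894 to 2.84%) and anterior second heart field-like cells (1.65%, interval 1.02 to 2.51%) were within the range of clusters 9, 10, 17 and 18, and proepicardium-like cells were at 2.08% (1.11 to 3.54%). These intervals cover counting error only.

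Neighbouring Hox genes had the most similar patterns over cell clusters. Likeness was Pearson's r of log2(CPM + 1) over the 32 clusters of at least 100 cells, for the 26 members with at least 1000 UMIs. Neighbouring groups within 1 Hox cluster had a median r of 0.90 (16 pairs), and members of the same group in different clusters 0.83 (25 pairs). For neighbouring groups in different Hox clusters it was 0.81 (44 pairs), near that of the same group. Some neighbours within a Hox cluster overlap in the annotation, and the part of this in r was not tested. Members 5 or more groups apart had 0.54 within a Hox cluster (25 pairs) and 0.50 between clusters (75 pairs). The highest value, 0.97, was shared by Hoxb6 with Hoxb7, Hoxb7 with Hoxb8, Hoxc8 with Hoxc9 and Hoxd8 with Hoxd9. Clusters share libraries and depth, so these are descriptions with no test.

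The level of all members together varied between samples within each stage. It was 353, 199 and 355 CPM in the 3 controls and 341, 384 and 525 CPM in the 3 mutants of E8.0. At E8.5 it was 383 and 339 CPM in the controls and 280 CPM in the mutant. At E9.5 the 5 controls of at least 20 cells had 34.3, 260, 286, 411 and 439 CPM, and the 6 mutants ran from 252 to 526 CPM with a median of 400 CPM. The conditions overlapped at E8.0 and E9.5, the single E8.5 mutant was below both E8.5 controls, and Bar7 was the lowest of these samples. Posterior members gave 17.8 to 26.0% of Hox RNA at E8.0 except in Bar26, where they gave 4.43%. Bar26 had no cell of cluster 26, against 2.30 to 11.2% of cells in the other E8.0 samples. The part of these cell shares in the Hox levels was not tested.

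**Figure D2:**
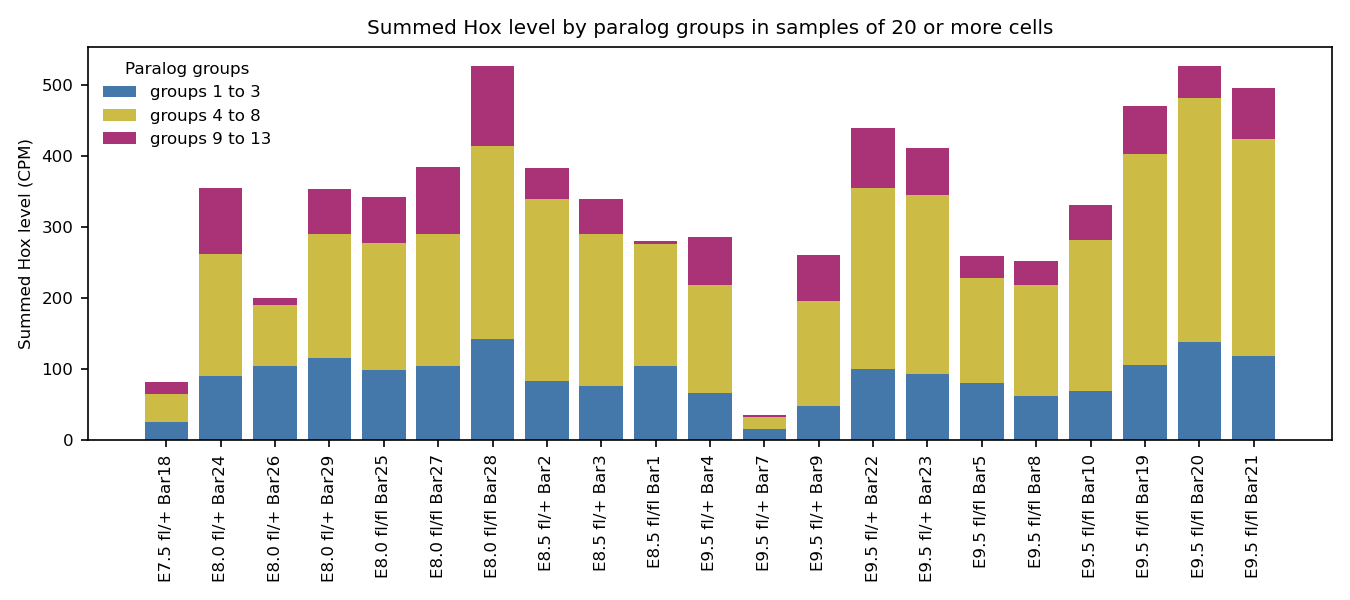
Summed Hox level (CPM) in each sample of at least 20 cells, split into groups 1 to 3, 4 to 8 and 9 to 13. Bar26 and Bar1 have little posterior RNA (8.84 and 4.58 CPM), and Bar7 is low throughout (34.3 CPM in all).

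Hoxa4 and Hoxc5 had the largest rises with stage. Between E8.0 and E9.5, 8 of the 34 members tested rose and 2 fell in edgeR's quasi-likelihood test with Benjamini-Hochberg adjustment at 0.05, with condition as a covariate. Of all 18063 genes tested, 23.2% were called in either direction, 13% higher and 10.3% lower. The share of members called in either direction is near that background and is no result about Hox genes as a set. The 8 that rose were all of groups 2 to 5 (3 of 8 anterior and 5 of 15 middle members), where Hoxb2, Hoxb3, Hoxd4 and Hoxb5 did not pass. No posterior member rose and Hoxa11 fell, of 11 tested out of 16. Of the first group, Hoxd1 fell, and Hoxb1 had an estimate of −0.69 that missed the threshold (adjusted p = 0.0600). The median log2 change was 0.36 for anterior, 0.71 for middle and −0.30 for posterior members, against 0.00 for all genes.

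Hoxa4, which helps to set the neck vertebrae, had 0.720, 1.34 and 1.94 CPM in the E8.0 controls and 1.29, 2.00 and 2.23 CPM in the E8.0 mutants. The 11 E9.5 samples ran from 0.838 to 12.5 CPM with a median of 7.68 CPM. Every E9.5 sample but Bar7 (the next lowest had 5.34 CPM) was above every E8.0 sample, and the log2 change was 2.44 (SE 0.25, edgeR adjusted p = 7.59e-07). Hoxc5 was between 1.00 and 1.89 CPM in the 6 samples of E8.0 and between 0.419 and 14.7 CPM at E9.5, median 7.75 CPM. Bar7 was below the E8.0 range and all other E9.5 samples were above it, the next lowest having 3.20 CPM, and the log2 change was 2.59 (SE 0.30, edgeR adjusted p = 3.35e-06). Hoxa5 went from a median of 10.3 CPM (8.31 to 15.3) at E8.0 to 28.0 CPM (1.68 to 36.1) at E9.5, a log2 change of 1.33 (SE 0.26, edgeR adjusted p = 0.000859). Without Bar7 its stages did not overlap either, since the next lowest E9.5 sample had 19.0 CPM.

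The other members that rose overlapped between stages. Hoxb4 had a median of 26.0 CPM (19.8 to 38.2) at E8.0 and 48.3 CPM (9.63 to 72.3) at E9.5, with a log2 change of 0.87 (SE 0.20, edgeR adjusted p = 0.00319). Hoxc4, also of the fourth group, went from 6.53 CPM (4.65 to 9.48) to 10.8 CPM (1.26 to 22.9), a log2 change of 1.14 (SE 0.29, edgeR adjusted p = 0.00681). Hoxa2 had medians of 10.6 CPM (4.32 to 10.9) and 14.3 CPM (4.19 to 20.1), a log2 change of 0.88 (SE 0.24, edgeR adjusted p = 0.00901). The third-group genes Hoxa3 and Hoxd3, which pattern the neck and the thymus region, were low. Hoxa3 rose from 1.27 CPM (1.17 to 2.51) to 4.31 CPM (0 to 6.97) and Hoxd3 from 1.52 CPM (1.10 to 3.42) to 3.23 CPM (0.838 to 5.26). Their log2 changes were 1.32 (SE 0.29) and 0.90 (SE 0.24), with edgeR adjusted p = 0.00220 and 0.00859. Since the annotation of Hoxa3 spans Hoxa4 and Hoxa5, its reads may in part be theirs. Hoxd4 missed the threshold at 0.97 (SE 0.35, edgeR adjusted p = 0.0503).

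Hoxd1 had 9.07 to 22 CPM at E8.0 (median 17.3) and 0.419 to 7 CPM at E9.5 (median 4.48), so that its stages did not overlap. It fell by 1.70 on the log2 scale (SE 0.24, edgeR adjusted p = 2.97e-05). Hoxa11 was 3.69, 0.0581, 1.06, 1.20, 2.83 and 2.65 CPM at E8.0, Bar26 being the low one, and at most 0.966 CPM at E9.5 with a median of 0.495 CPM. Its log2 change was −1.65 (SE 0.48, edgeR adjusted p = 0.0131), and the antisense RNA Hoxa11os fell as well (log2 −1.52, SE 0.51, adjusted p = 0.0315). Reads of this pair cannot be told apart without the use of strand. Hoxb1, Hoxb6 and Hoxc8, 3 further members of high level, missed the threshold. Hoxb1 had a median of 37.1 CPM (32.4 to 43.7) at E8.0 and 16.7 CPM (2.93 to 45.1) at E9.5. Hoxb6 had 25.1 CPM (12.8 to 31.2) and 15.5 CPM (0.838 to 37.1), and Hoxc8 had 29.0 CPM (7.5 to 50.5) and 12.3 CPM (0 to 29.3).

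The stages of run 1 alone gave 14 called members, 13 higher and 1 lower, with 30.4% of all genes called. The added ones were Hoxb3, Hoxb5, Hoxc6, Hoxd4 and Hoxd8, and Hoxa11 was not called (log2 −1.56). The fl/+ samples alone called 3 members, Hoxa4, Hoxc5 and Hoxd1, with 4.55% of all genes called. The cell makeup moved with stage. Trunk lateral plate-like cells were at most 0.285% of cells in an E8.0 sample and 2.44 to 20.0% at E9.5 (Bar6 aside), and cluster 4, led by Cdx4 and Cdx2 with 94.0% of its cells from E8.0, had 18.4 to 27.5% at E8.0 and at most 0.968% at E9.5. The summed level of 6 caudal mesoderm markers was 10.5 (Bar26) to 56.2 CPM at E8.0 and 1.26 to 11.8 CPM at E9.5. The part of cell makeup in these changes was not tested.

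Within classes of cells the levels differed by member. No stage test was run within a class. In paraxial mesoderm-like cells, the source of vertebrae and trunk muscle, Hoxa4 had a median of 2.29 CPM (1.48 to 3.53, 5 samples) at E8.0 and 6.43 CPM (3.67 to 17.2, 8 samples) at E9.5, with no overlap. Different clusters hold this class at the 2 stages: cluster 20 at E8.0, and clusters 2 and 11 at E9.5. Cluster 20 raised 5 of 6 markers both of this class and of caudal mesoderm, so its name is uncertain. In allantois-like cells Hoxa4 had 1.83 CPM (0 to 3.24) and 3.86 CPM (0 to 7.02), and Hoxa5 15.2 CPM (1.21 to 21.1) and 18.1 CPM (13.9 to 25.9), with overlap. Here too the clusters differ, since cluster 26 held 44.6% of the E8.0 control cells of this class and cluster 15 held 63.7% at E9.5. In anterior second heart field-like cells Hoxb4 was 12.1 CPM (6.82 to 23.0) at E8.0 and 58.8 CPM (25.0 to 83.9) at E9.5, with no overlap, while Hoxc5 was at most 1.11 CPM at either stage. Of the 3 clusters of this class, clusters 19 and 25 had 0.746% and 0.592% of their cells from E8.0, so the E8.0 cells were nearly all of cluster 6. Cluster 6 had 42.5% of its cells from E8.0 and 45.6% from E9.5, and its Hoxb4 level of 35.2 CPM is over all stages. Cluster 19 (52.8 CPM over all stages) had 67.2% of its cells from E9.5. Hoxb4 was not split by stage within cluster 6. The highest E9.5 medians of Hoxa5 and Hoxc5 among named classes were those of trunk lateral plate-like cells, 95.5 and 37.9 CPM, a class with no E8.0 sample of 20 cells.

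**Figure D3:**
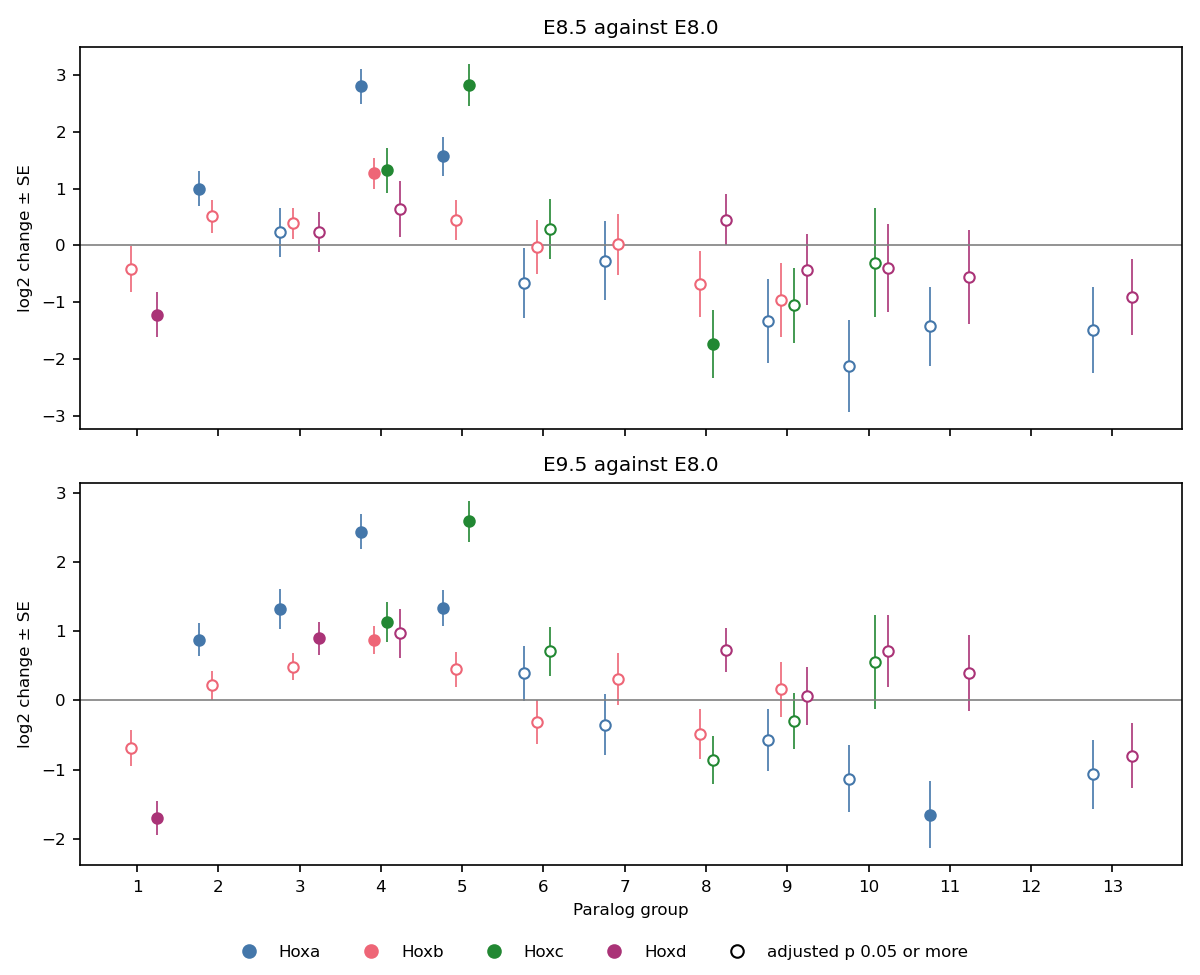
Log2 fold change with stage, for E8.5 (top) and E9.5 (bottom) against E8.0, of tested members by paralog group, from edgeR; points are estimates with SE bars, coloured by Hox cluster, and filled where called. Hoxa4 and Hoxc5 have the largest rises, while Hoxd1 and Hoxa11 lie below 0.

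At E8.5, 6 of 34 members tested were higher and 2 lower than at E8.0, with 20.5% of all genes called, 9.61% higher and 10.9% lower. This comparison uses the same E8.0 samples as the one above. Hoxa4 had 3.44 and 10.4 CPM in the E8.5 controls and 10.7 CPM in the mutant, all above E8.0, for a log2 change of 2.80 (SE 0.31, edgeR adjusted p = 1.30e-05). Hoxc5 had 3.44 and 9.26 CPM in the controls and 7.92 CPM in the mutant (log2 2.82, SE 0.37, edgeR adjusted p = 0.000124). The first control given for each gene is Bar2, with 34 cells against 2508 in the other control, Bar3. Its 3.44 CPM stands for 3 UMIs in Hoxa4 and 3 UMIs in Hoxc5. Hoxa5 (log2 1.57), Hoxb4 (1.27), Hoxc4 (1.32) and Hoxa2 (1.00) were higher too. Hoxd1 had 14.9 and 5.43 CPM in the controls and 4.29 CPM in the mutant (log2 −1.22, SE 0.39, edgeR adjusted p = 0.0301). Hoxc8 fell by 1.74 (SE 0.60, edgeR adjusted p = 0.0429), with 4.68 to 11.5 CPM at E8.5. With run as a further term Hoxa4, Hoxb4 and Hoxc5 were still called and the other 5 were not. The count was 3 without Bar3, 4 without Bar1, 5 without Bar24 and 11 without Bar26. Between E8.5 and E9.5 no member was called by edgeR, with 0.847% of all genes called, 0.388% higher and 0.46% lower. 1 member had an unadjusted p under 0.05, DESeq2 called 0, and 1 member was called without Bar4.

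Genes around the Hox system changed with stage as well. Of 13 upstream regulators 8 fell and 2 rose between E8.0 and E9.5, where 10.3% of all genes were lower and 13% higher. Cdx1 (log2 −1.41), Cdx2 (−3.00) and Cdx4 (−3.05), the caudal factors that open the middle of the Hox clusters, fell, as did T (−2.51), Fgf8 (−1.09), the retinoic acid enzymes Aldh1a2 (−1.40) and Cyp26a1 (−0.72), which make and degrade it, and Nr6a1 (−0.86). Rarb, a retinoic acid receptor, rose by 1.00 and Gdf11 by 0.63. Of 9 cofactors Meis2 alone changed (0.59), and of 10 chromatin regulators Eed alone (−0.23). Of 7 RNAs and other homeobox genes of the clusters that could be tested, out of 10, Hoxaas2 rose (0.99) and Hoxaas3 (−1.21), Hoxa11os, Hoxb3os (−0.42) and Evx1 (−2.25) fell. Of 7 reported targets and partners in the heart region, Nr2f1 (1.58) and Nr2f2 (0.54) rose and Osr1 (−0.52) and Foxf1 (−0.90) fell. The adjusted p of these genes lay between 4.09e-05 (Cdx2) and 0.0462 (Nr2f2) in the same edgeR test. The median change was −0.86 for the upstream regulators, 0.20 for the cofactors and −0.01 for the chromatin regulators, against 0.00 for all genes. Cdx1, Cdx2, Cdx4, Aldh1a2, Osr1 and Foxf1 are among the 10 leading genes of cluster 4. That cluster had 18.4 to 27.5% of cells at E8.0 and at most 0.968% at E9.5, and stage was tied to run. Whether these genes changed within a kind of cell was not tested.

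Few members were called between conditions in whole samples. At E8.0 no member was called by edgeR in mutants against controls, with 0.0244% of all genes called, 0.00609% higher and 0.0183% lower. 3 members had an unadjusted p under 0.05, and DESeq2 called 0. The estimates were above 0 for 31 of 32 members tested, with a median of 0.47 against 0.01 for all genes. Bar26, a control, was the lowest E8.0 sample for most posterior and middle members, as given above, and the summed posterior level was 92.0, 8.84 and 62.8 CPM in controls and 64.5, 94.9 and 113 CPM in mutants, with overlap. The fraction of cells called male was 0.016, 0.016 and 0.43 in these controls and 0.81 to 0.82 in the mutants, and with it as a covariate no member was called either.

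At E9.5, 1 of 33 members tested was higher and 1 lower in mutants in edgeR's quasi-likelihood test, with run as a term, and 7.49% of all genes were called, 4.45% higher and 3.04% lower. The lower one, Hoxc10, a hindlimb-level gene, had 11.8, 0, 3.70, 12.1 and 7.73 CPM in the controls and 0.523 to 3.30 CPM in the mutants, median 2.25 CPM. Apart from Bar7 at 0, all these controls were above all mutants. The control Bar6, of 6 cells, was also in the test and had 66.9 CPM from 9 UMIs. The log2 change of Hoxc10 was −1.85 (SE 0.49, edgeR adjusted p = 0.0339). Without the 7 Hox-rich clusters, which were chosen by their Hox level and held 82.6% of posterior UMIs, it was 0.12. The E9.5 share of cells in cluster 15, where Hoxc10 is a leading member, was 0 to 5.81% in controls and 0 to 6.48% in mutants.

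The sign of the estimates differed by axial group at E9.5. They were above 0 for 6 of 8 anterior and 14 of 15 middle members and for 2 of 10 posterior members tested, with medians of 0.38, 0.33 and −0.46 against 0.02 for all genes. Members vary together, so these signs are not independent and were not tested as sets. The summed levels overlapped between conditions. Anterior sums were 14.2 to 99.1 CPM in controls and 61.4 to 137 CPM in mutants. Middle sums were 17.6 to 256 and 148 to 344 CPM, and posterior sums 2.51 to 84.6 and 31.3 to 72.5 CPM. Hoxc10 passed the test, and among those that did not were Hoxb1 (0.60, SE 0.18, edgeR adjusted p = 0.0534) and Hoxb4 (0.59, SE 0.18, edgeR adjusted p = 0.0629). The calls depended on the samples. Run 1 alone, with 2 controls and 3 mutants, called 8 members among 7.5% of all genes: Hoxb1, Hoxb4, Hoxb5, Hoxb6, Hoxc4 and Hoxc5 higher, and Hoxc9 and Hoxc10 lower. Run 3 alone called 0 of 22. The count was 5 without Bar7, 1 without each of Bar5, Bar20 and Bar21, and 0 without each of Bar9, Bar10, Bar22 and Bar23. Without blood-like cells it was 7. The blood marker sum was 34357 to 203355 CPM in controls and 44131 to 211130 CPM in mutants of 20 cells or more, and beyond that fit its part was not tested. Proepicardium-like cells were 0.610 to 5.35% of cells in these controls and 5.36 to 15.8% in mutants, with no overlap. In run 1 paraxial mesoderm-like cells were 18.3 and 19.3% of cells in controls and 5.56 to 8.08% in mutants. The part of these shares in the Hox levels was not tested. The fraction of cells called male was 0.0115, 0.616, 0.0189, 0.0145 and 0.0163 in the E9.5 controls of at least 20 cells. In the E9.5 mutants it was 0.825, 0.0298, 0.0179, 0.794, 0.0233 and 0.781. No fit at E9.5 alone had this fraction as a covariate.

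**Figure D4:**
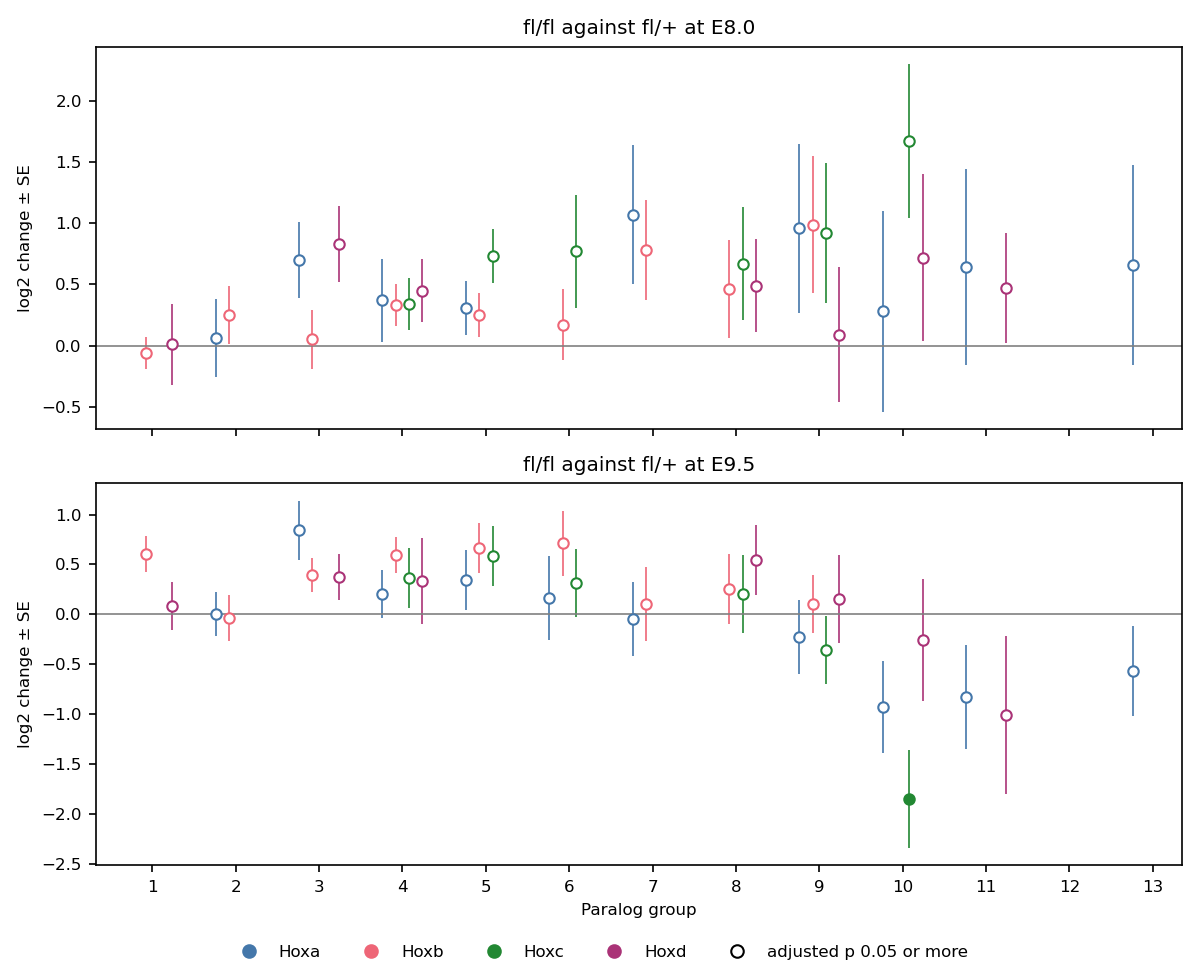
Log2 fold change, fl/fl against fl/+, of tested members at E8.0 (top) and E9.5 (bottom) by paralog group, from edgeR; points are estimates with SE bars, coloured by Hox cluster, and filled where called. At E9.5 the posterior estimates lie mostly below 0, and Hoxc10 is called.

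An interaction term tested whether the condition effect differed between the stages E8.0 and E9.5. EdgeR called 0 of 34 members, with 0.453% of all genes called, 0.408% higher and 0.0448% lower. 4 members had an unadjusted p under 0.05, and DESeq2 called 1 (Hoxb1). The largest estimate was that of Hoxc10, −3.49 (SE 0.86, edgeR adjusted p = 0.0905), which was called without Bar24 or without Bar7. Over all stages together edgeR called 1 of 35 members, with 10.7% of all genes called, 5.03% higher and 5.71% lower. That count was 0 to 4 when single samples were left out.

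**Figure D5:**
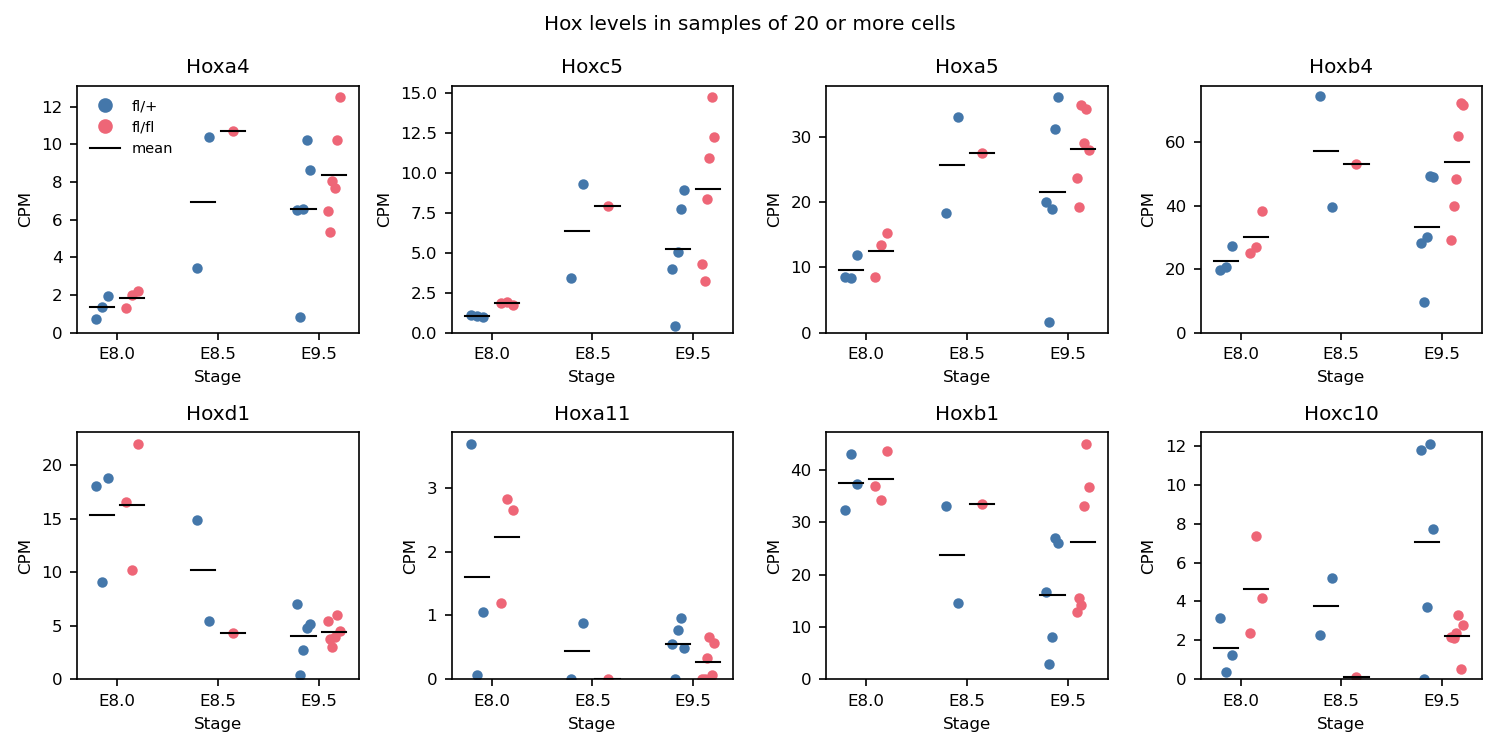
Level (CPM) of 8 members in each sample of at least 20 cells, by stage and condition. Hoxa4 and Hoxc5 are low at E8.0 and higher later, Hoxd1 and Hoxa11 are highest at E8.0, and Bar7 is the lowest E9.5 sample in every panel, tied at 0 with Bar5 and Bar8 for Hoxa11.

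Cells of a class were compared between conditions in samples with at least 20 of them, with stage and run in the model. In cranial mesoderm-like cells, named from markers of head mesoderm, 6 of 19 members tested were higher in mutants, with 3.96% of all genes called. Among them were Hoxd3 (log2 3.36, SE 0.84), Hoxd4 (3.10, SE 0.63), Hoxb4 (2.40, SE 0.45), Hoxb5 (2.34, SE 0.65) and Hoxb2 (1.88, SE 0.44), with edgeR adjusted p between 0.0124 and 0.0451. At E9.5 the summed Hox level of these cells was 32.1, 36.1, 109 and 37.4 CPM in 4 controls and 193, 269, 309 and 485 CPM in 4 mutants, with no overlap. Hoxb4 was 1.00, 1.18, 7.80 and 2.88 CPM in those controls and 21.7, 34.8, 44.2 and 75.3 CPM in the mutants. At E8.0 the sum was 34.9 to 70.9 CPM over both conditions. Different clusters hold this class at E9.5: 96.2% of its control cells were in cluster 13 and 93.6% of its mutant cells in cluster 7, which at E8.0 held 98.7% of the control cells. Cluster 3 (874 cells, 62.7 CPM of Hox RNA) stayed unnamed, with 3 of 6 cranial mesoderm markers raised, and is not in this comparison. Its cells were 90.7% from E9.5 and 7.44% mutant, and 36.5% came from Bar22. At E9.5 a difference between clusters and a difference within a cluster cannot be told apart. With at least 50 cells per sample no member was called (5 of 11357 genes were), and the median estimate of the members turned from 1.34 to −0.25. That fit kept 1 E9.5 control (Bar9, run 3) and 3 E9.5 mutants (Bar19, Bar20 and Bar21, run 1). DESeq2 called 3 members.

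In paraxial mesoderm-like cells Hoxb1 was higher in mutants (log2 0.88, SE 0.20, edgeR adjusted p = 0.0266), 1 of 26 members tested, with 2.36% of all genes called. At E9.5 it had 13, 9.68, 24.4 and 19.1 CPM in the controls and 30.1, 41.5, 71.0 and 45.8 CPM in the mutants, with no overlap. Cluster 2 (Hoxb1 9.04 CPM) held 64.9% of the E9.5 control cells of this class and cluster 11 (26.0 CPM) held 72.4% of the mutant cells. Here too a difference between clusters and a difference within a cluster cannot be told apart. No member was called with at least 50 cells per sample, and DESeq2 called 4. In the other 8 classes tested edgeR called no member. In allantois-like cells 0 of 33 members were called (0.0166% of all genes, 3 with an unadjusted p under 0.05, DESeq2 0), and in trunk lateral plate-like cells 0 of 29 (2.01% of all genes, 4 unadjusted, DESeq2 0). The other 6 classes and their share of all genes called were anterior second heart field-like (0.260%), blood-like (0.0174%), cardiomyocyte-like (0.182%), endothelial-like (0.0494%), neural-like (2.58%) and proepicardium-like (0.0192%), with 0 to 5 members at an unadjusted p under 0.05 in each and 0 called by DESeq2.

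Of the related genes, Tbx5, a regulator of the posterior heart field, was higher in E9.5 mutants (log2 0.72, SE 0.17, edgeR adjusted p = 0.0182) and Nr2f1, of the atria, was lower (−0.64, SE 0.15, edgeR adjusted p = 0.0216). These were 2 of 7 targets and partners tested. Of 7 RNAs and other homeobox genes of the Hox clusters, 1 was called higher and 1, Hoxa11os, lower (−1.62, SE 0.44, edgeR adjusted p = 0.0305). None of 9 cofactors, 12 upstream regulators and 10 chromatin regulators tested at E9.5 was called, where 7.49% of all genes were.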

How the data were processed

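RNA of single cells sorted for the Mesp1-Cre reporter was counted with 10x Chromium v3. The authors mapped the reads with kallisto and bustools 0.46.1 to GRCm38 and also name Cell Ranger, per the submitters' processing notes. The deposited matrix holds raw counts of UMIs per gene and cell, not normalized, and the deposited cell table gives run, barcode, stage and condition. Filters on cells and the use of strand are not given in the sources used here. Counts were summed per barcode sample (134457 to 61307782 UMIs) and scaled to CPM for levels. Tests used edgeR 4.0.16 (filterByExpr, TMM, quasi-likelihood, two-sided, all genes) with Benjamini-Hochberg adjustment at 0.05. The genotype models had stage and run as terms, and the stage model had condition. DESeq2 1.42.0 in R 4.3.3, other filters and sample sets were alternatives. The 28 cells labelled E7.5 formed a stage of their own.

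Clustering of cells used scanpy 1.11.5 with leidenalg 0.10.2 (1433 variable genes, 30 components, 20 neighbours, resolution 1) after 91 genes in or within 20 kb of the Hox clusters were left out. A cluster took a class name when at least 60% of its markers, and at least 3, were raised by 1 on the log2 scale and a marker was among its 10 leading genes. That naming rule was set after the data were seen. No doublet caller was run. 1 member enters the counts and sums but is not reported here by name or shown in the plots of single members.

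The members and gene lists were chosen with earlier results of these data known. Values are given for members called in a test or with a stage mean of 20 CPM or more, by sample or as the lowest, median and highest sample of a stage (15 members, less the member not reported). The tests were checked on counts simulated from the real means. EdgeR recovered 91.9% of genes changed by 1 on the log2 scale at E9.5 (16563 genes, 19 false calls) and 71% at E8.0 (16141 genes, 10 false calls). It recovered 48% for the interaction (17420 genes, 16 false calls) and 80.4% between E8.0 and E9.5 (17481 genes, 24 false calls). Each simulated gene had the spread typical of its level and 1 mean over all samples before the change. The shares therefore do not hold for members with a larger spread, such as Hoxa10 at E9.5 (log2 −0.93, SE 0.46, edgeR adjusted p = 0.230). A member that was not called may still have changed.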

Additional observations from a re-analysis of the deposited data

Results flagged for a closer look

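The E9.5 control Bar7 was far below the other controls in summed posterior Hox RNA. It had 2.51 CPM, the nearest other control of at least 20 cells had 64.1 CPM, and the gap was 0.750 of the range of the 5 samples, above the critical value of 0.71. Of 46 groups examined in this way 1 stood out, and chance alone singles out about 1 in 20. Bar7 held no allantois-like cell, 2.44% of its cells were trunk lateral plate-like and 40.2% were blood-like. The part of this makeup in the Hox level was not tested.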

How the results depend on the processing

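The counts of Hox genes called moved with several settings. For condition over all stages (1 called) they were 4 with DESeq2 size factors, 6 with DESeq2, 0 without a filter, 0 in run 1 alone, 0 in run 3 alone, 8 without the Hox-rich clusters and 2 with the share of male cells as covariate. At E9.5 (2 called) they were 4, 5 and 1 for the first 3 of these, 8 in run 1, 0 in run 3 and 7 without blood-like cells, and Hoxc10 turned to 0.12 without the Hox-rich clusters. The interaction (0 called) gave 1 with DESeq2 and 1 without a filter. E9.5 against E8.0 (10 called) gave 3 in fl/+ samples alone and 17 without the Hox-rich clusters, and E8.5 against E8.0 (8 called) gave 3 with run as a term. Within classes (7 called) there were 0 at 50 cells or more. The share of Hox UMIs in the Hox-rich clusters (64.3%) was 48.3% and 55.7% at clustering resolutions of 0.5 and 2, and the share of cells with a Hox UMI (52.8%) was 70.7% without thinning. Leaving out each sample gave 0 to 4 calls over all stages, 0 to 0 at E8.0, 0 to 5 at E9.5, 0 to 1 for the interaction, 9 to 14 for E9.5 against E8.0, 3 to 11 for E8.5 against E8.0 and 0 to 1 for E9.5 against E8.5. Over all stages, 18 of 21 samples moved the count: it was 0 without each of Bar4, Bar5, Bar9, Bar10, Bar19, Bar20, Bar21, Bar22, Bar23, Bar24 and Bar28, 2 without each of Bar1, Bar3, Bar6, Bar26 and Bar29, 3 without Bar25 and 4 without Bar7. The Hox-rich clusters were chosen by Hox level, so leaving them out removes most Hox RNA and is no test of cell makeup. The causes were not tested. No paired analysis was possible because the barcode numbers of the conditions share no number. The 5 members below the count filter at E9.5 against E8.0 had 112 UMIs or fewer in all, and low depth and low expression cannot be told apart there.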

Other observations

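The sample labelled E7.5, a control of 28 cells outside the series design, had 80.6 CPM of Hox RNA, of which 24.2 CPM were anterior, 40.3 CPM middle and 16.1 CPM posterior. Its cells were 67.9% blood-like. No mutant of that stage was present, so it informs no comparison of the report.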
